A study of Mus musculus with 12 samples.

Results

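Mitochondria in nerve cells fuse and divide, and the balance of the 2 processes sets their size, their distribution along neurites and the removal of damaged parts. The mRNA of 10 genes of this machinery was examined in the hippocampus of naturally aged mice given pyrroloquinoline quinone (PQQ), a redox cofactor of bacteria that is taken as a dietary compound. The genes were chosen by name: the fusion GTPases Opa1, Mfn1 and Mfn2, the fission GTPase Dnm1l with its outer membrane receptors Fis1 and Mff, the cristae organizers Immt and Chchd3, and the inner membrane proteases Oma1 and Yme1l1. All 10 were found among the 27833 genes of the expression table.

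Fusion of the outer membrane is carried out by the mitofusins MFN1 and MFN2, and fusion of the inner membrane by OPA1. DRP1, the product of Dnm1l, is recruited from the cytosol by receptors such as MFF and constricts the organelle. IMMT (MIC60) and CHCHD3 (MIC19) belong to the MICOS complex at the necks of the cristae, the folds that hold the respiratory chain. OMA1 and YME1L cut OPA1 into its short forms, and cleavage by OMA1 increases under stress. These proteins are regulated to a large degree by cleavage, phosphorylation and recruitment, none of which is measured by mRNA.

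The samples were hippocampi of male C57BL/6J wild-type mice aged 20 months. Mice received 0.2 mL of normal saline alone (CON), PQQ at 5 mg/kg/day (PQQ-L) or PQQ at 10 mg/kg/day (PQQ-H) in the same volume, by oral gavage over 14 days. The study assigned 6 mice to each group, and 3 CON, 5 PQQ-L and 4 PQQ-H libraries were sequenced. There was no young group, so every comparison is between treated and untreated old mice. Values are FPKM, which set the sequenced fragments of a gene against its length and the library total, and 29654202 to 38179242 reads per library were counted on genes. The reads behind the 10 genes were recovered from the FPKM. Oma1 had 183 to 258 reads per library, and the other 9 genes had 1817 to 9860.

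The libraries did not all match the label of hippocampus to the same degree. CON 1, CON 3, PQQ-H 1 and PQQ-H 2 had a summed FPKM of 12 striatal neuron markers of 1336 to 3352, against 37.3 to 178 in the other 8 libraries. Their summed FPKM of 12 hippocampal neuron markers was 69.9 to 136, against 184 to 510. The oligodendrocyte markers summed to 1967 to 3048, against 1066 to 1853. These are the 4 libraries with the highest FPKM total, 371731 to 400869 against 343933 to 365108. Separately, 15 choroid plexus markers summed to 1798 to 5979 FPKM in CON, 102 to 201 in PQQ-L and 78.3 to 95.7 in PQQ-H. Choroid plexus content and treatment therefore cannot be told apart in any comparison with CON. No PQQ-L library was among the 4, while 2 of 3 CON libraries were, so the log2FC values of the 9 tested genes and of the partner genes named are given with and without them. Oma1 was below the filter and was not fitted without them. Without them CON holds 1 library, CON 2, which is then assumed to vary like the other groups. CON 2 itself had a choroid plexus sum of 1798 FPKM, against 78.3 to 201 in the PQQ libraries. Its sum of 8 thalamic neuron markers was 56.7 FPKM, against 9.28 to 19.0 in the PQQ libraries. Leaving out the 4 libraries does not remove these differences. In bulk tissue, fewer cells of a type and less RNA per cell cannot be told apart.

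**Figure D1:**
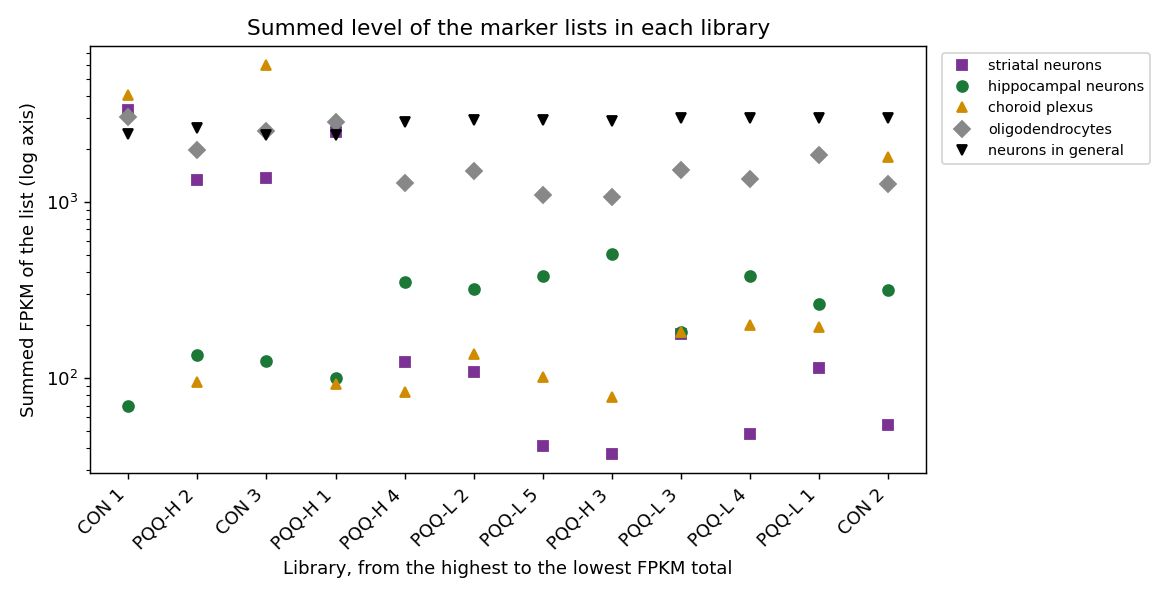
Summed FPKM (log axis) of 5 lists of marker genes in each of the 12 libraries, which are ordered from the highest FPKM total on the left to the lowest on the right. The first 4 libraries have striatal sums of 1336 to 3352 and hippocampal sums of 69.9 to 136, whereas the choroid plexus sums separate the 3 CON libraries from the other 9.

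The starts of the genes were examined for the letters of 4 motifs of factors that are known for nuclear-encoded mitochondrial genes. All 10 genes matched the RefSeq promoters of GRCm38.p6, with 15 starts in all. In the window of 250 bases before to 50 bases after each start, on both strands, NRF-1 (GCGCATGCG) was found for Opa1 and GABP/ETS (CCGGAAGT) for Mfn1 and Fis1. Of all 27025 genes with a promoter in the table, 1.95% held the first motif at a start and 4.31% the second. ERR (TCAAGGTCA, 0.466% of genes) and YY1 (AAGATGGCG, 1.64%) were found for none of the 10 genes. A match is a description of letters and not evidence of binding. The 250 bases before the start are shown for the genes that hold a motif, 5′ to 3′ on the strand of the gene, with the motif in capitals. They lie at chr16:29579084-29579333 (Opa1), chr3:32529232-32529481 (Mfn1) and chr5:136953025-136953274 (Fis1, the first of its 2 starts), all on the + strand. In Opa1 the motif is read on both strands at positions that overlap, so its capitals run over 10 bases.
Opa1: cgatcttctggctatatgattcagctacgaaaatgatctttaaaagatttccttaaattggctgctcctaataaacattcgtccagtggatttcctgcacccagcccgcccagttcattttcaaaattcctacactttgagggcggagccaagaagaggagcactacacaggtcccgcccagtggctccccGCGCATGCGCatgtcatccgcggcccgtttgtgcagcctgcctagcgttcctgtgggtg
Mfn1: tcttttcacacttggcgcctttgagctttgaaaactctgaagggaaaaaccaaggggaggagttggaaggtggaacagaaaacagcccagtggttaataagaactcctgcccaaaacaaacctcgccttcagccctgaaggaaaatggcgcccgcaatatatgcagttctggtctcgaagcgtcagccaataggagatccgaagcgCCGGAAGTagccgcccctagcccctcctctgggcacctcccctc
Fis1: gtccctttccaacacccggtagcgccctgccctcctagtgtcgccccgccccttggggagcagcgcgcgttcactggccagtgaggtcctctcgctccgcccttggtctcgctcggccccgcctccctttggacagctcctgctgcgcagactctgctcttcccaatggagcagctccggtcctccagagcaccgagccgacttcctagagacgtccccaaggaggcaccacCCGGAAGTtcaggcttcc

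The 10 genes differed widely in level. Mean FPKM over the 12 libraries was 116.5 for Fis1, 94.8 for Mff, 49.5 for Dnm1l and 41.5 for Mfn2. Immt followed at 27.2, Opa1 at 22.3, Yme1l1 at 17.997, Chchd3 at 17.1 and Mfn1 at 14.6. Oma1 stood apart at 0.483. Between neighbours in this order, Mff exceeded Dnm1l, Mfn2 exceeded Immt, Immt exceeded Opa1, and Mfn1 exceeded Oma1 in 12 of 12 libraries. Dnm1l exceeded Mfn2, Opa1 exceeded Yme1l1, and Chchd3 exceeded Mfn1 in 11 of 12. Fis1 exceeded Mff in 9 of 12 and Yme1l1 exceeded Chchd3 in 8 of 12, so these 2 pairs are not ordered beyond the spread between libraries.

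The low level of Oma1 depends on the gene length behind its FPKM. The reads and FPKM together imply a length of 12.9 kb for Oma1, whereas its exons in GENCODE M21 cover 2.14 kb and its coding transcript is 1.92 kb. Divided by that transcript, its mean level would be 3.26 FPKM, which is still the lowest of the 10. With the longest coding transcript as length, Immt would move from 27.2 to 48.5 FPKM and Chchd3 from 17.1 to 39.1. Mfn2 would stand at 55.3 and Dnm1l at 54.7, so their order turns with the length used. Ratios of FPKM between groups do not depend on this length, but values of log2(FPKM + 0.1) do where the FPKM is low. For PQQ-L and PQQ-H vs. CON the log2FC of Oma1 on that scale was -0.18 and -0.12. By voom on the recovered reads it was -0.21 and -0.14. At 3.26 FPKM, Oma1 would also pass the filter of a mean FPKM of 0.5.

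**Figure D2:**
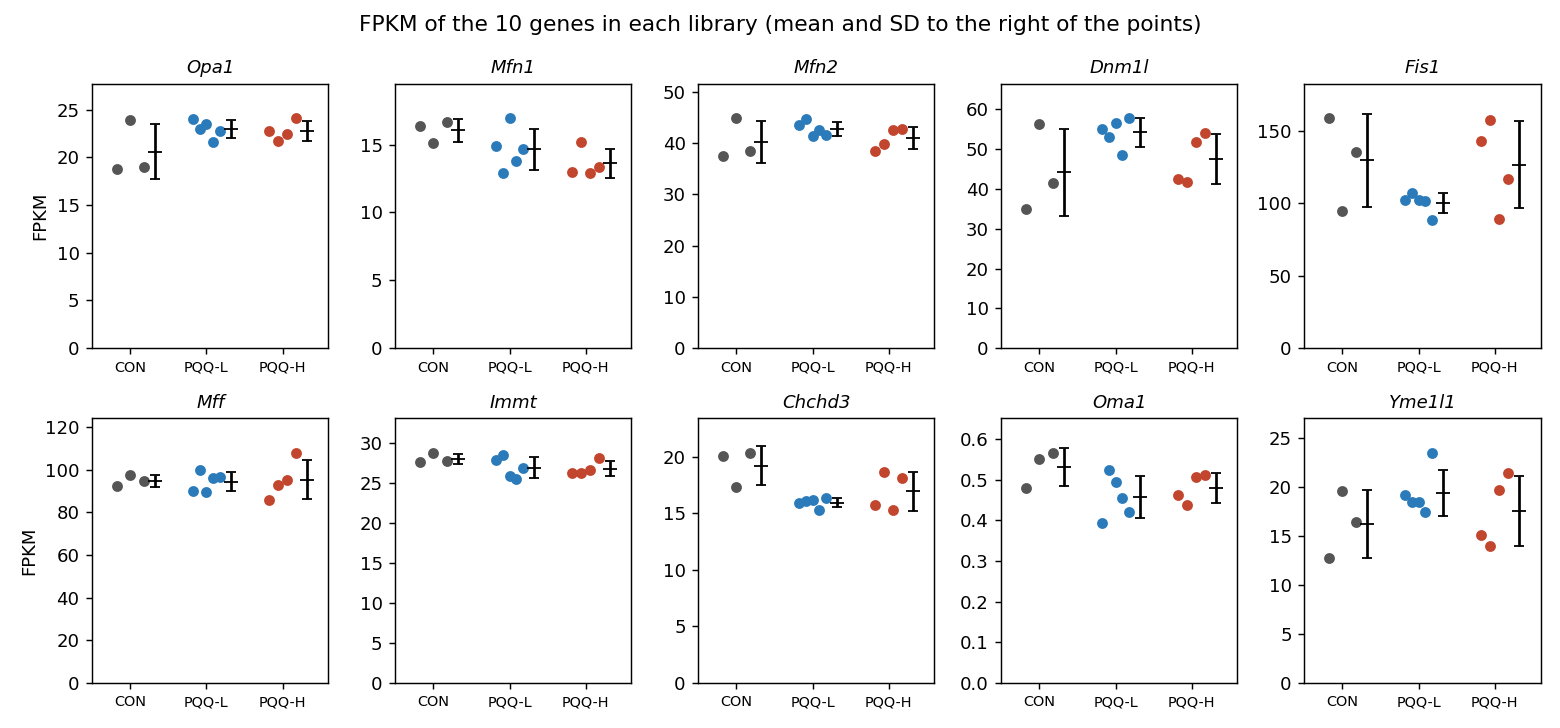
FPKM of each of the 10 genes in each library (points), with the mean and SD of the group beside them (n = 3 CON, 5 PQQ-L and 4 PQQ-H); each axis starts at 0. CON and PQQ-H spread widely for Dnm1l, Fis1 and Yme1l1, while the 5 PQQ-L values of Chchd3 lie below all 3 CON values.

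Low-dose PQQ was compared with saline to ask whether the mRNA of the machinery differs after treatment. None of the 9 genes tested was called in PQQ-L vs. CON by limma with Benjamini-Hochberg adjustment over 13796 genes. The smallest adjusted p was 0.196. In this limma fit, the study's thresholds of |log2FC| above 1 and adjusted p below 0.05 called 0.471% of all genes. The paper used DESeq2 and reports more genes at these thresholds for both doses. Without the fold threshold, limma called 0.587% of all genes lower and 0.0% higher. At an unadjusted p below 0.05, Chchd3 was lower and Dnm1l was higher, 1 of 9 in each direction, where 11.6% of all genes were lower and 8.92% higher. The log2FC was below 0 for 5 of the 9, as for 53.9% of all genes. Its median was -0.01 over the 9 genes, and that of all genes was -0.03. Oma1 was below the filter of a mean FPKM of 0.5 and was tested in a fit of 27659 genes without it.

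Chchd3, whose product bridges MICOS to the outer membrane, had the smallest p. Its FPKM was 20.0, 17.3 and 20.3 in CON, 15.9, 16.0, 16.1, 15.3 and 16.3 in PQQ-L, and 15.7, 18.6, 15.2 and 18.1 in PQQ-H. All 5 PQQ-L libraries lay below all 3 CON libraries, a separation toward lower values that 7.66% of all genes showed. None of the 9 genes separated toward higher values in PQQ-L, as 2.96% of all genes did. The means were 19.2 ± 1.68 (SD, n = 3) and 15.9 ± 0.403 (SD, n = 5). The log2FC was -0.26 (95% confidence interval -0.45 to -0.08), with adjusted p = 0.196 by limma. Without the 4 libraries it was -0.12 (adjusted p = 0.982 by limma). In PQQ-H vs. CON the log2FC was -0.18 (adjusted p = 0.535 by limma), with overlap of the groups, and -0.06 without the 4 libraries.

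Immt, the core subunit of the same complex, varied least relative to its level, its highest library at 1.13 times its lowest. It had 27.6, 28.8 and 27.8 FPKM in CON, 28.0, 28.5, 26.0, 25.6 and 26.9 in PQQ-L, and 26.3, 26.3, 26.7 and 28.2 in PQQ-H. The groups overlapped. Its log2FC was -0.06 in both comparisons with CON, with confidence intervals of -0.19 to 0.07 (PQQ-L) and -0.20 to 0.07 (PQQ-H). Without the 4 libraries the values were -0.10 and -0.07.

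Among the fission genes, Dnm1l and Fis1 differed between libraries in opposite senses. Dnm1l had 34.9, 56.3 and 41.4 FPKM in CON, 55.0, 53.0, 56.6, 48.7 and 57.8 in PQQ-L, and 42.6, 41.8, 51.8 and 54.1 in PQQ-H. CON 2 was as high as the PQQ-L libraries, and the other two CON libraries were below them all. The log2FC in PQQ-L vs. CON was 0.32 (95% confidence interval 0.01 to 0.63), with adjusted p = 0.240 by limma, and the direction turned without the 4 libraries, to -0.06. In PQQ-H vs. CON it was 0.12 (-0.20 to 0.45), and -0.09 without them.

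Fis1, an outer membrane protein that also takes part in mitophagy and peroxisome division, had the widest range in FPKM, its highest library at 1.79 times its lowest. Relative to its level, Yme1l1 ranged more widely (1.85 times). The FPKM of Fis1 was 158.9, 94.8 and 135.4 in CON, 102.6, 107.3, 102.2, 101.5 and 88.6 in PQQ-L, and 143.2, 157.4, 89.2 and 117.1 in PQQ-H. The PQQ-L libraries lay close together, whereas CON and PQQ-H each held high and low libraries. The coefficient of variation of CON was 25.0%, that of PQQ-L was 6.998% and that of PQQ-H was 23.7%. The log2FC was -0.34 (95% confidence interval -0.76 to 0.08) in PQQ-L vs. CON, with adjusted p = 0.278 by limma, and 0.08 without the 4 libraries. In PQQ-H vs. CON it was -0.03 (-0.47 to 0.40), and 0.11 without them.

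Mff, the main receptor of DRP1, had 92.2, 97.5 and 94.5 FPKM in CON, 89.9, 99.7, 89.4, 96.3 and 96.7 in PQQ-L, and 85.6, 93.0, 95 and 107.9 in PQQ-H. The groups overlapped, and CON lay within the range of both PQQ groups. The log2FC was -0.01 (95% confidence interval -0.17 to 0.16) and 0.01 (-0.17 to 0.18) for PQQ-L and PQQ-H vs. CON. Without the 4 libraries it was -0.05 and 0.05.

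Of the fusion genes, Mfn1 was the only one below CON in both PQQ groups on average. Its FPKM was 16.4, 15.1 and 16.6 in CON, 14.9, 12.9, 16.9, 13.8 and 14.6 in PQQ-L, and 13.0, 15.2, 12.9 and 13.3 in PQQ-H. Of the 4 PQQ-H libraries, PQQ-H 2 lay within the range of CON and the other 3 below it. The log2FC in PQQ-H vs. CON was -0.24 (95% confidence interval -0.45 to -0.03), with adjusted p = 0.436 by limma, and it was -0.20 without the 4 libraries. In PQQ-L vs. CON the log2FC was -0.14 (-0.34 to 0.07), and -0.05 without them.

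Mfn2, which also tethers mitochondria to the endoplasmic reticulum, had 37.4, 44.9 and 38.4 FPKM in CON, 43.5, 44.7, 41.4, 42.7 and 41.5 in PQQ-L, and 38.6, 39.9, 42.7 and 42.8 in PQQ-H. CON 2 was the highest library of all. The log2FC was 0.09 (95% confidence interval -0.07 to 0.25) and 0.03 (-0.14 to 0.20) for PQQ-L and PQQ-H vs. CON. Both turned to -0.07 without the 4 libraries.

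Opa1, the inner membrane GTPase, had 18.8, 23.9 and 19.0 FPKM in CON, 24.1, 23.0, 23.5, 21.6 and 22.8 in PQQ-L, and 22.8, 21.7, 22.4 and 24.1 in PQQ-H. CON 1 and CON 3 were the lowest libraries, and CON 2 was among the highest. The log2FC was 0.17 (95% confidence interval -0.02 to 0.35) in PQQ-L vs. CON, with adjusted p = 0.255 by limma, and 0.15 (-0.04 to 0.34) in PQQ-H vs. CON. Without the 4 libraries the values were -0.06 and -0.04.

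The proteases that cut OPA1 were Yme1l1 and Oma1. Yme1l1 had 12.7, 19.6 and 16.4 FPKM in CON, 19.2, 18.5, 18.5, 17.4 and 23.5 in PQQ-L, and 15.1, 13.9, 19.7 and 21.4 in PQQ-H, and all groups overlapped. The log2FC was 0.27 (95% confidence interval -0.10 to 0.64) and 0.11 (-0.28 to 0.50) for PQQ-L and PQQ-H vs. CON, and -0.03 and 0.06 without the 4 libraries. Oma1, the stress-activated protease, had 0.479, 0.550 and 0.566 FPKM in CON, 0.394, 0.523, 0.495, 0.455 and 0.422 in PQQ-L, and 0.462, 0.437, 0.507 and 0.511 in PQQ-H. Its groups overlapped too. The log2FC of Oma1 was -0.18 (-0.54 to 0.18) and -0.12 (-0.50 to 0.25).

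High-dose PQQ was compared with saline in the same fit. None of the 9 genes was called in PQQ-H vs. CON, where the study's thresholds called 0.819% of all genes and the smallest adjusted p of the 9 was 0.436 by limma. Without the fold threshold, 1.08% of all genes were lower and 0.0145% higher. At an unadjusted p below 0.05 only Mfn1 of the 9 was lower and 0 were higher, against 7.88% and 1.85% of all genes. None of the 9 separated from CON, whereas 5.72% of all genes did so toward lower and 1.36% toward higher values. The log2FC was below 0 for 4 of the 9, as for 55.6% of all genes. Its median was 0.01 over the 9 genes, and that of all genes was -0.03. Both comparisons share the 3 CON libraries.

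The 2 doses were also set against each other. None of the 9 genes and none of the 13796 genes tested (0.0%) was called in PQQ-H vs. PQQ-L, and 0 of 9 reached an unadjusted p below 0.05 by limma, against 4.6% of all genes lower and 3.55% higher. None separated, as 3.33% of all genes did toward lower and 1.42% toward higher values, and 6 of 9 had a log2FC below 0 (all genes, 54.3%). The widest difference was that of Fis1, with a log2FC of 0.31 (95% confidence interval -0.08 to 0.69). Dnm1l followed at -0.20 (-0.48 to 0.09). Without the 4 libraries these values were 0.03 and -0.03. The intervals leave room for differences of this size, so likeness of the doses is not shown.

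**Figure D3:**
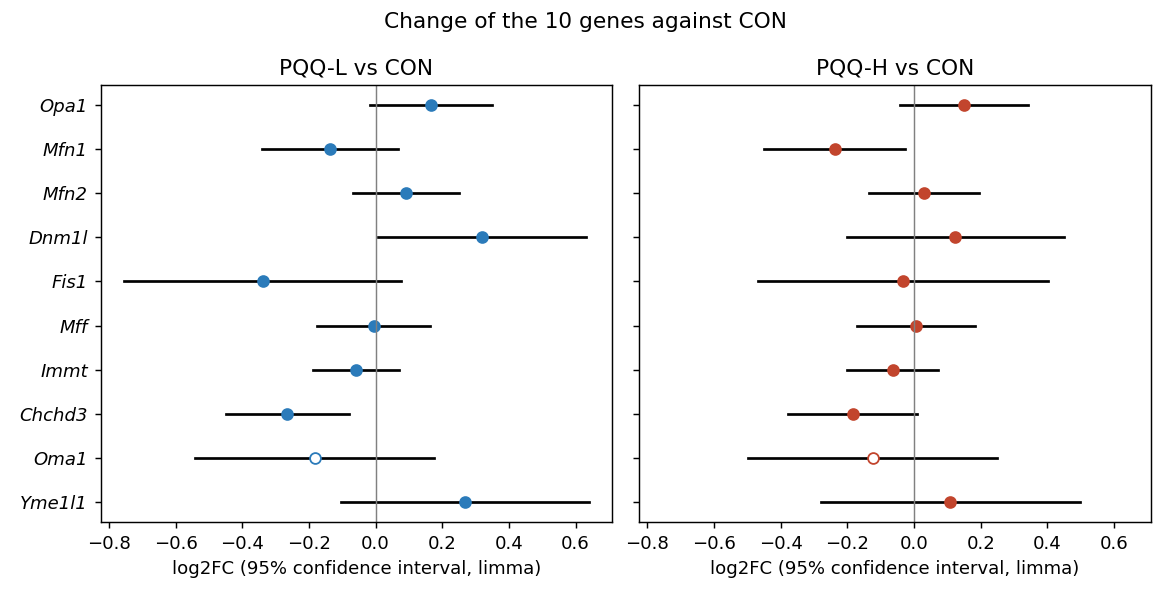
log2FC of the 10 genes against CON (points) with the 95% confidence interval of limma (lines), for PQQ-L (left) and PQQ-H (right); the open point of Oma1 comes from the fit without a filter. The interval excludes 0 for Chchd3 and Dnm1l in PQQ-L and for Mfn1 in PQQ-H, at unadjusted p-values of 0.00907, 0.0452 and 0.0308.

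For several of the genes, the 4 libraries of the highest FPKM total stood apart from the other 8. The 4 come from CON and PQQ-H and include no PQQ-L library, so this split is not separate from group. The 4 libraries of the highest total held the 4 highest Fis1 values, 135.4 to 158.9 FPKM against 88.6 to 117.1 in the other 8. The same 4 held the 4 lowest values of Dnm1l (34.9 to 42.6 against 48.7 to 57.8), of Yme1l1 (12.7 to 16.4 against 17.4 to 23.5) and of Mfn2 (37.4 to 39.9 against 41.4 to 44.9). They also held 3 of the 4 lowest Opa1 values and 3 of the 4 highest values of Chchd3 and of Mfn1. The remaining genes, Mff, Immt and Oma1, did not separate in this way. These are the libraries with the high striatal and oligodendrocyte sums and with a summed FPKM of 12 general neuron markers of 2406 to 2634, against 2861 to 3011 in the other 8. The part of these cell types in the differences was not tested.

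Gene length moved with the same libraries. Among genes under 1 kb, the median deviation from the gene's mean log2 level was 0.02 to 0.34 in the 4 libraries and -0.17 to 0.08 in the other 8. Among genes over 8 kb it was -0.35 to -0.08 and 0.00 to 0.16. Fis1 has the shortest gene model of the 10 (1.10 kb) and was high in the 4 libraries, while Opa1 (7.50 kb), Mfn2 (5.78 kb), Yme1l1 (4.57 kb) and Dnm1l (4.38 kb) were low there, except that Opa1 in PQQ-H 1 was not. Immt (4.87 kb) was not low in all of those libraries, which held 2 of its 4 lowest values. Mfn1 (4.55 kb) had 1 of its 4 lowest and 3 of its 4 highest values there, as did Chchd3 (3.55 kb). Mff (2.19 kb) was not high, with 0 of its 4 highest values there. The part of gene length or tissue makeup in this was not tested. When genes were centred within 20 bins of length, none of the 9 genes was called in either comparison with CON. In PQQ-L vs. CON the log2FC of Fis1 then moved from -0.34 to -0.11, that of Opa1 from 0.17 to 0.05, that of Dnm1l from 0.32 to 0.30 and that of Chchd3 from -0.26 to -0.22.

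**Figure D4:**
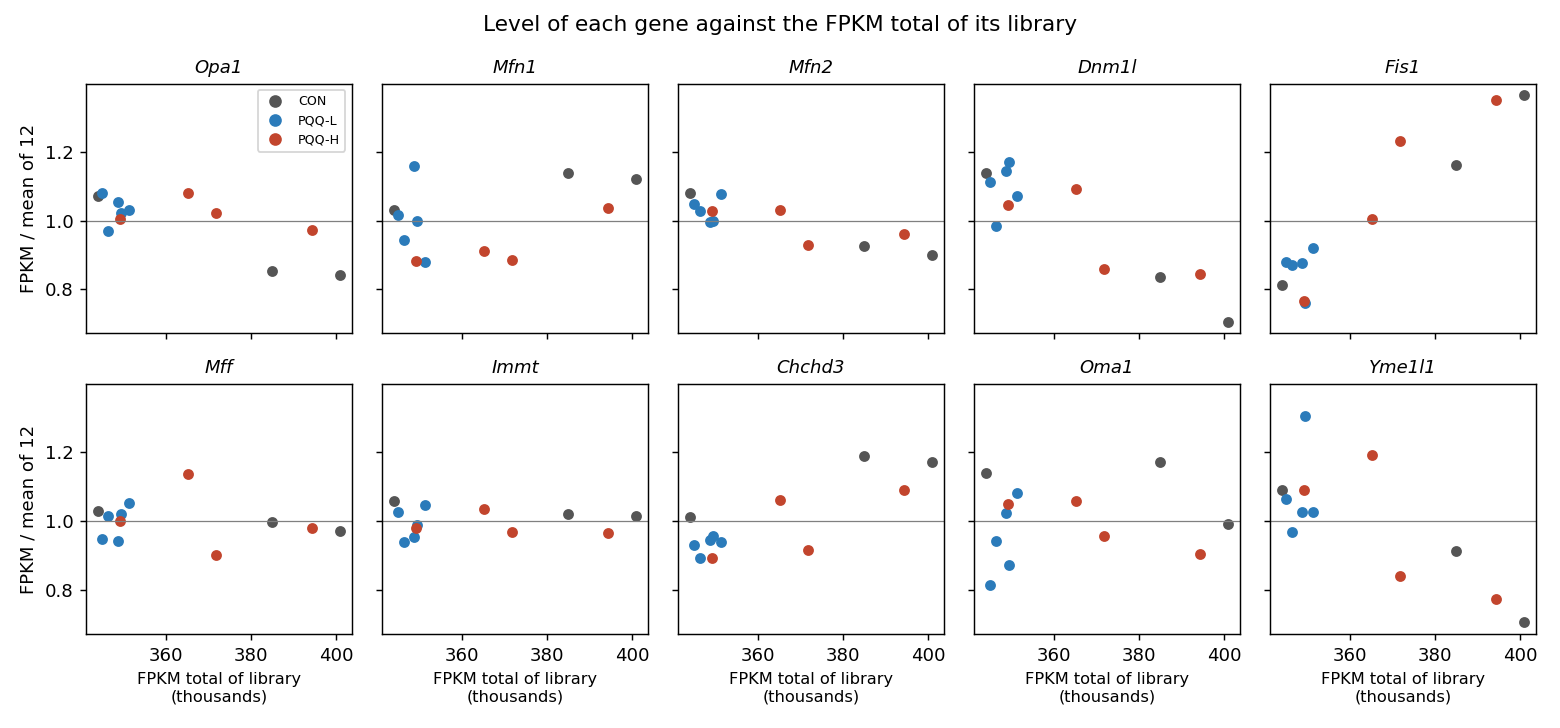
FPKM of each gene divided by its mean over the 12 libraries (vertical) against the FPKM total of the library (horizontal), 1 point per library, coloured by group. Fis1 is high and Dnm1l, Yme1l1 and Mfn2 are low in the 4 libraries with totals of 371731 to 400869. These are CON 1, CON 3, PQQ-H 1 and PQQ-H 2.

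Ratios of 2 genes within a library do not depend on the scaling between libraries. Mff to Fis1 was 0.580, 1.03 and 0.698 in CON, 0.876, 0.929, 0.875, 0.949 and 1.09 in PQQ-L, and 0.598, 0.591, 1.06 and 0.921 in PQQ-H. The 4 lowest ratios were again those of CON 1, CON 3, PQQ-H 1 and PQQ-H 2. Opa1 to Dnm1l, inner membrane fusion against fission, ranged from 0.425 to 0.539 in CON, 0.394 to 0.445 in PQQ-L and 0.433 to 0.536 in PQQ-H. Its 4 highest values, 0.460 to 0.539, came from the same libraries. Mfn2 to Mfn1 ranged from 2.28 to 2.97 in CON, 2.44 to 3.47 in PQQ-L and 2.63 to 3.30 in PQQ-H, and the groups overlapped. Immt to Chchd3 was 1.38, 1.67 and 1.37 in CON, 1.61 to 1.78 in PQQ-L and 1.41 to 1.75 in PQQ-H, with CON 2 inside the range of both PQQ groups. Yme1l1 to Oma1 was 26.5 to 35.7 in CON, 35.4 to 55.7 in PQQ-L and 31.9 to 41.9 in PQQ-H, a ratio whose level depends on the length used for Oma1.

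The first letter of the library name, L or R, is not explained in the labels and divided each group. Within letter L (2 CON, 2 PQQ-L and 3 PQQ-H libraries) the difference in mean log2(FPKM + 0.1) between PQQ-L and CON was -0.25 for Chchd3 and 0.14 for Dnm1l. Within letter R (1 CON, 3 PQQ-L and 1 PQQ-H libraries) it was -0.32 and 0.65. For Mfn1 the difference between PQQ-H and CON was -0.21 and -0.30. In PQQ-L vs. CON the sign was the same in both sets for 10 of the 10 genes, though the differences of Mff were 0.0080 and 0.010. For PQQ-H it was the same for 3 (Opa1, Mfn1 and Chchd3) and opposite for 7, among them Dnm1l (-0.10 in L and 0.63 in R), Fis1 (0.16 and -0.44) and Yme1l1 (-0.16 and 0.75). The values of letter R rest on 1 CON library, CON 1, which is one of the 4 libraries of the highest FPKM total. CON 3, 1 of the 2 CON libraries of letter L, is another of the 4. No PQQ-L library is among them, so in PQQ-L vs. CON both sets share this imbalance. No test was made within the letters.

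Beyond the 10 genes, 5 lists of genes that act with them were described by counts. Of 17 other genes of fusion and fission 15 were tested, and 2 had lower and 2 had higher levels in PQQ-L vs. CON at an unadjusted p below 0.05 (all genes, 11.6% and 8.92%). For PQQ-H 1 was lower and 0 were higher (all genes, 7.88% and 1.85%). That gene was Mtfr1, a regulator of fission. At an adjusted p below 0.05 by limma, 1.08% of all genes were lower in PQQ-H vs. CON and 0.587% in PQQ-L vs. CON. The higher ones were 0.0145% and 0.0%. Mtfr1 was the only gene of these 5 lists to pass that threshold against CON. Its FPKM was 2.62, 2.33 and 2.66 in CON, 2.19, 2.01, 1.92, 1.73 and 1.84 in PQQ-L, and 1.57, 1.86, 1.33 and 1.20 in PQQ-H. All libraries of both PQQ groups lay below all CON libraries, where 7.66% (PQQ-L) and 5.72% (PQQ-H) of all genes separated toward lower values. The choroid plexus sums also separate CON from both PQQ groups, so choroid plexus content and treatment cannot be told apart here. The log2FC of Mtfr1 was -0.75 in PQQ-H vs. CON (SE 0.146, adjusted p = 0.0357 by limma). In PQQ-L vs. CON it was -0.37 (adjusted p = 0.227 by limma). Without the 4 libraries the values were -0.84 (adjusted p = 0.262 by limma) and -0.26. Over 27 alternative fits the log2FC in PQQ-H vs. CON ran from -0.85 to -0.51, and the adjusted p was below 0.05 in 9 of them, with a range of 0.0103 to 0.262. Fits without CON 1, CON 3, PQQ-H 3 or PQQ-H 4 gave adjusted p-values of 0.128, 0.175, 0.123 and 0.103.

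The other genes of this list that separated in PQQ-L vs. CON were not called after adjustment. Gdap1, an outer membrane protein needed in peripheral nerve, had 14.3 ± 3.53 FPKM in CON (SD, n = 3) and 18.9 ± 0.529 in PQQ-L (SD, n = 5). Slc25a46, an outer membrane protein of fission and lipid transfer, had 19.0 ± 3.43 and 24.2 ± 1.46. Mul1, a ubiquitin ligase of the outer membrane, had 8.55 ± 0.593 and 7.50 ± 0.257. Gdap1 and Slc25a46 were at their lowest in CON 1, CON 3, PQQ-H 1 and PQQ-H 2, as were Dnm1l and Yme1l1. Without those libraries the log2FC in PQQ-L vs. CON was 0.05 for Gdap1, 0.10 for Slc25a46 and -0.16 for Mul1.

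Of 17 cristae and MICOS genes, 3 had lower and 0 had higher levels in PQQ-L vs. CON at an unadjusted p below 0.05, where 11.6% and 8.92% of all genes were. For PQQ-H vs. CON, 1 was lower and 0 were higher, against 7.88% and 1.85% of all genes. Apool (MIC27), a MICOS subunit that binds cardiolipin, had 4.62, 3.55 and 4.88 FPKM in CON, 2.69, 3.01, 2.999, 2.35 and 2.80 in PQQ-L, and 4.26, 3.04, 2.37 and 2.62 in PQQ-H. All PQQ-L values lay below CON, a separation that 7.66% of all genes showed, with a log2FC of -0.62 (SE 0.177, adjusted p = 0.169 by limma). CON 1, CON 3 and PQQ-H 1 had its 3 highest values, and without the 4 libraries the log2FC was -0.35 (adjusted p = 0.982 by limma). The other two, Chchd10 and Tmem11, are outside the naming rule and were named after their values were seen, with log2FC of -0.62 and -0.18, and -0.06 and -0.22 without the 4 libraries. The protease list held inner membrane proteases and prohibitins together with genes that are neither, such as Tafazzin, Crls1 and Ptpmt1. Of its 14 genes, 4 had lower and 0 had higher levels in PQQ-L vs. CON, again beside 11.6% and 8.92% of all genes. For PQQ-H, 0 passed that threshold in either direction, as 7.88% and 1.85% of all genes did. Spg7, a subunit of the matrix-facing AAA protease, had 19.6 ± 0.0975 FPKM in CON (SD, n = 3) and 17.5 ± 0.749 in PQQ-L (SD, n = 5). Phb, a scaffold of the inner membrane, had 50.7 ± 3.76 and 44.7 ± 2.66. Parl and Tafazzin, named after their values were seen, had log2FC of -0.29 and -0.23. With the 4 libraries left out, the values in PQQ-L vs. CON were -0.16 for Spg7, -0.14 for Phb, -0.26 for Parl and 0.01 for Tafazzin, whose direction turned. None of these was called after adjustment.

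Of 6 transport adaptors, Snph, which anchors mitochondria in axons, was higher at an unadjusted p below 0.05 in both comparisons, with 49.9 ± 7.62 FPKM in CON (SD, n = 3), 62.9 ± 3.47 in PQQ-L (SD, n = 5) and 60.7 ± 8.68 in PQQ-H (SD, n = 4). Among all genes 8.92% (PQQ-L) and 1.85% (PQQ-H) were higher at this threshold. The log2FC of Snph was 0.18 and 0.23 without the 4 libraries, a fit in which CON holds 1 library. Of 10 genes of mitochondrial content, such as citrate synthase and Tomm20, 0 passed this threshold in either comparison with all 12 libraries. The median log2FC in PQQ-L vs. CON was 0.05 for fusion and fission, -0.13 for cristae and -0.17 for the protease list. It was 0.11 for transport and -0.09 for content, where all genes had -0.03. In PQQ-H vs. CON the medians were -0.05, -0.05, -0.07, 0.02 and -0.02. The median of the protease list stayed below 0 in both comparisons under median-of-ratios, TPM, quantile and length-bin scaling. In PQQ-H vs. CON it lay close to 0 under median-of-ratios (-0.0065) and length-bin scaling (-0.0089). That of each other list changed sign under at least 1 of these scalings. After centring within bins of gene length the medians of the 5 lists in PQQ-L vs. CON were -0.01, 0.01, -0.05, -0.01 and 0.02. In the remaining 8 libraries they were -0.01, -0.02, -0.06, 0.09 and -0.09 in PQQ-L vs. CON, and -0.10, 0.02, -0.02, -0.01 and -0.04 in PQQ-H vs. CON, where all genes had -0.03 and -0.05. Over single genes of the 5 lists, the log2FC then ran from -0.35 (Apool) to 0.47 (Inf2) in PQQ-L vs. CON. In PQQ-H vs. CON it ran from -0.84 (Mtfr1) to 0.80 (Inf2). Inf2 is outside the naming rule and was named after its values were seen. With all 12 libraries its log2FC was -1.04 and -0.05.

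**Figure D5:**
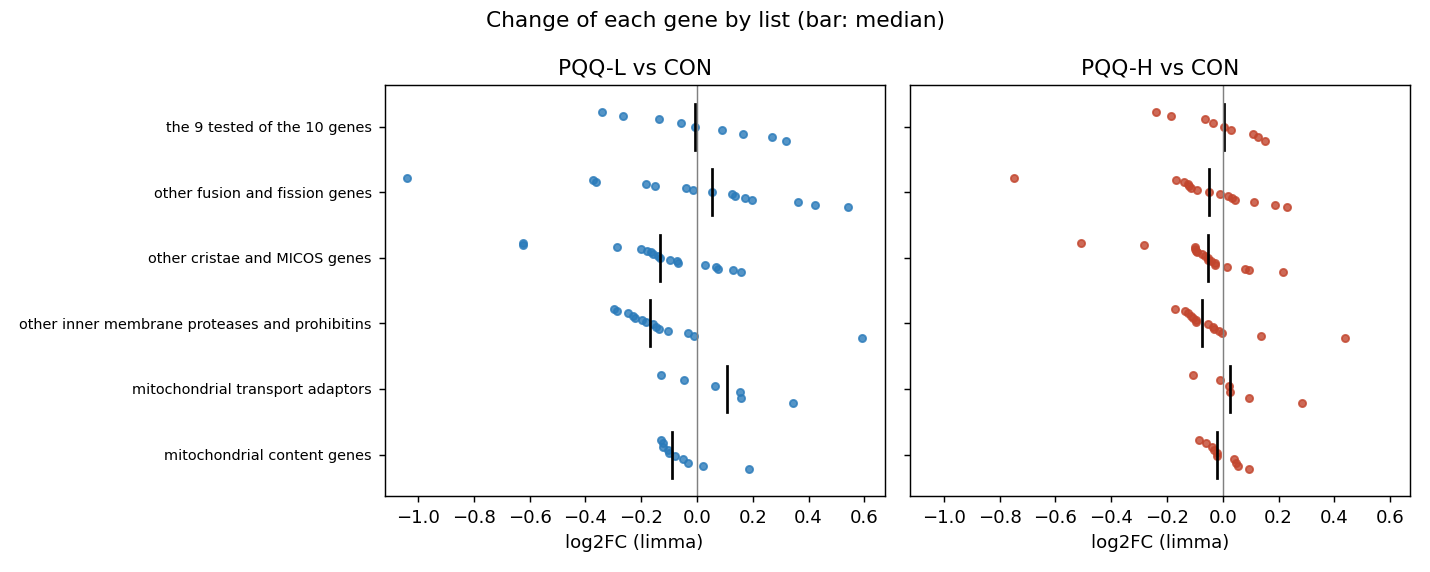
log2FC (limma) of each tested gene (points) and the median (bar) for the 9 tested genes and the 5 lists, in PQQ-L (left) and PQQ-H (right) against CON. The medians lie between -0.17 and 0.11 on the left and between -0.07 and 0.02 on the right, and Mtfr1 at -0.75 is the lowest point on the right.

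The genes whose pattern was most like that of the 10 were sought over the 12 libraries, by the correlation of log2(FPKM + 0.1) with the mean of the 10 standardized levels. They were Wbp4 (Pearson's r = 0.896), Ddx50 (0.877), Snx24 (0.855), Csnk2b (0.854) and Msh6 (0.843). These values are a description over libraries that share tissue makeup and FPKM total, and the mean combines genes that moved in opposite senses.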

How the data were processed

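12 hippocampal RNA libraries were analyzed. Per the paper's methods, the authors filtered reads with fastp, mapped them with HISAT2, counted them with HTSeq-count and tested them with DESeq2. Versions and strandedness are not given in the sources used here, and the submitters' processing notes name the build mm39. The authors deposited FPKM for 27833 genes, which already divide by gene length and library total. Positions and promoters are from GENCODE M21 and RefSeq GRCm38.p6, another build. Without strand, reads of Dnm1l, Mff and Immt cannot be told apart from those of antisense genes that overlap their exons by 243, 195 and 185 bases.

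Whole reads were recovered from FPKM ratios for 24315 of 24315 genes tried (tolerance 0.02 reads). The reads of all 66 pairs of libraries were compared, and chi-square divided by its degrees of freedom was at least 18.76, so no pair agreed within sampling noise. The labels do not say whether the libraries of a group come from separate mice, so p-values measure the spread between libraries.

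Groups were compared by limma (version 3.58.1, R 4.3.3, trend, Benjamini-Hochberg) on log2(FPKM + 0.1), fitting the 12 libraries together over the 13796 genes whose FPKM averaged 0.5 or more. Fold changes are on this scale and intervals are 95%. The fit was tested on simulated data. Other steps ran in Python 3.11.15 (pandas 2.3.3, numpy 2.4.6, matplotlib 3.10.9, scipy 1.17.1). The 10 genes and the lists of partners and markers were chosen with earlier results of these data known. Genes outside the 10 were named by rule: at most 4 per list with an unadjusted p below 0.05 and no overlap between libraries in either PQQ group against CON, and the 5 with the most similar pattern. The alternatives were other pseudocounts, filters, scalings and covariates, the 2 groups compared alone, a fit without trend, a replicate block, voom on recovered reads (mean of at least 10 reads) and each library left out. Centring by length, the FPKM total as a covariate and the fit of 8 libraries were chosen after seeing the data. Marker lists for astrocytes, microglia, endothelium and thalamic neurons were also summed. In the 4 libraries of the highest FPKM total against the other 8, these sums were 857 to 1109 and 828 to 996, 345 to 449 and 243 to 304, 104 to 142 and 79.7 to 96.2, and 9.28 to 88.0 and 10.4 to 56.7 FPKM. Of the markers, Grid2ip was below a mean FPKM of 0.5, and Lct, Six3, Isl1, Folr1, Kcne2, Otx2, Krt8 and Slc4a5 were listed at 0 in at least 1 library. Protein features were not analysed here.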

Additional observations from a re-analysis of the deposited data

Results flagged for a closer look

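The FPKM of Yme1l1 in PQQ-L 5 was 23.5, against 17.4 to 19.2 in the other 4 PQQ-L libraries. It stood apart because its gap to the nearest library was 0.711 of the range of the group, just above the critical value of 0.71 for 5 samples. Of the 20 groups examined (10 genes in PQQ-L and PQQ-H) this was the only one, and chance flags about 1 in 20. The 3 CON libraries are too few for this rule.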

How the results depend on the processing

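In this section a gene is called at an adjusted p below 0.05, without the fold threshold of the study. With 1 exception, none of the 9 genes was called in any comparison under the alternatives. The count in PQQ-L vs. CON ran from 0 to 3 when each library was left out, and without CON 2 it was 3: Dnm1l (log2FC 0.51, adjusted p = 0.0288 by limma), Opa1 (0.28, 0.0300) and Chchd3 (-0.34, 0.0319). That fit called 1484 genes lower and 1741 higher, against 81 and 0 with all libraries. Without CON 2, both remaining CON libraries are among the 4 of the highest FPKM total. Chchd3 and Mfn1 kept their direction in every alternative for both comparisons with CON.

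Directions turned as follows. In the 8 libraries, PQQ-L vs. CON gave Opa1 -0.058, Mfn2 -0.0708, Dnm1l -0.056, Fis1 0.0805 and Yme1l1 -0.025, and PQQ-H vs. CON gave Opa1 -0.041, Mfn2 -0.0708, Dnm1l -0.088 and Fis1 0.11. With the FPKM total as a covariate, PQQ-L vs. CON gave Mfn2 -0.019, Fis1 0.081 and Yme1l1 -0.034, PQQ-H vs. CON gave Fis1 0.056 and Mff -0.0031, and PQQ-H vs. PQQ-L gave Dnm1l 0.0297, Fis1 -0.025, Yme1l1 0.078, Opa1 0.086, Mfn2 0.025, Immt 0.015 and Chchd3 -0.025. Mff in PQQ-L vs. CON became 0.035 under median-of-ratios scaling, 0.10 in TPM, 0.043 under quantile normalization and 0.11 with centring by length. Immt became 0.052 in TPM (PQQ-L) and 0.0037 under median-of-ratios scaling (PQQ-H). In PQQ-H vs. CON, Fis1 became 0.034 under median-of-ratios scaling and 0.068 with centring by length, and Mff -0.0080 under quantile normalization. When each library was left out, Mff ran from -0.026 to 0.015 in PQQ-L vs. CON. For PQQ-H, Mfn2 ran from -0.0203 to 0.11, Dnm1l from -0.031 to 0.31, Fis1 from -0.24 to 0.13, Mff from -0.056 to 0.055 and Yme1l1 from -0.056 to 0.26. In PQQ-H vs. PQQ-L, where single genes under the other alternatives are not listed, the log2FC was below 0 for 3 to 8 of the 9 genes, against 6 with all libraries. That number ran from 3 to 8 in PQQ-L vs. CON and from 2 to 7 in PQQ-H vs. CON. The cause of these changes was not tested.

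The replicate numbers did not pair the libraries. Deviations of same-numbered libraries correlated from -0.62 to 0.72, above 0.1 in 4 of 10 pairs. With the number as a replicate block 0 of the 9 genes were called, and Mff in PQQ-H vs. CON became -0.032. At an adjusted p below 0.05, that fit called 49 genes lower and 0 higher for PQQ-H and 23 and 0 for PQQ-L, against 149 and 2 and 81 and 0 in the fit without the block. In the lists, the 1 call in PQQ-H vs. CON (Mtfr1) was 0 without a filter, under median-of-ratios scaling, under quantile normalization, with centring by length and in the 8 libraries, and 0 to 1 when each library was left out. Mtfr1 was also above the threshold with only the 2 groups compared (adjusted p = 0.253 by limma), with the library letter as a covariate (0.0685) and with the replicate block (0.249). In PQQ-L vs. CON the count of list genes at an adjusted p below 0.05 ran from 0 to 12, with 12 without CON 2. At that threshold the fit without CON 2 called 1484 genes lower and 1741 higher of all 13777 tested. In TPM the median log2FC of all genes in PQQ-L vs. CON moved from -0.03 to 0.08, and the genes at an unadjusted p below 0.05 from 1603 lower and 1231 higher to 907 and 1947. With 183 to 258 reads per library, Oma1 is limited most by depth.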
